A study of Mus musculus with 8 samples.

Results

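The genes described here are those of DNA replication and S phase in NMuMG cells, an epithelial line derived from normal mouse mammary gland. They were chosen by symbol, as 44 named genes of the replication machinery and of S-phase supply and regulation, from the 37310 rows of a table of raw read counts. All 44 were found, and all 44 are among the 13028 genes that had enough counts to be tested. The lowest count of any of them in a library was 42, so none was included through a single group of high libraries.

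The study compared control cells with cells carrying a CRISPR-Cas9 deletion in *Lnc-Nr6a1*, a long non-coding RNA gene, to ask how its loss alters early responses to the cytokine TGF-β1. Bulk RNA was sequenced from 4 groups of 2 libraries: control genotype without treatment, control genotype with 10 ng/ml TGF-β1 for 2 h, KO genotype without treatment, and KO genotype with 10 ng/ml TGF-β1 for 2 h. By the study's methods the deletion removes part of the promoter and first exon and edited cells were grown from single sorted cells, so that traits of a clone and the deletion cannot be told apart. The libraries held 7871090 and 7800602 counts in untreated control, 11210495 and 9895118 in treated control, 4297832 and 7181737 in untreated KO, and 12761749 and 13574397 in treated KO. The methods call the duplicates biological but nothing says that they were separate cultures, and p-values then measure only the spread between these libraries, which may be technical.

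*Lnc-Nr6a1* (Gm13507, NCBIM37 chr2:38678777-38707890, plus strand) was counted first as a check of the genotype labels. It had 3 and 14 counts in untreated control and 25 and 35 in treated control, against 11 and 7 in untreated and 0 and 0 in treated KO libraries, where a count of 0 allows up to 0.244 and 0.238 CPM. The untreated libraries overlapped and the check failed there, so both KO groups are called libraries labelled knockout. Other genes did divide the libraries by that label: *Fam111a* had 122 and 139, and 188 and 187 counts in untreated and treated control and 0 in each of the 4 libraries labelled knockout. *Mal2* and *Dsg2* likewise had 52 to 118 counts in the control libraries and 0 in those labelled knockout. These 3 are named in the study's paper as lowered in its knockout cells, and were chosen after their values were seen. They do not check the labels of treatment or replicate. *E2f2*, picked for this purpose after its values were seen, was at 18.9 to 22.2 CPM in untreated and 1.67 to 3.01 CPM in treated libraries. Whether single libraries of a genotype were exchanged was not tested. Levels are given as CPM, counts per 1000000 of the library total after scaling by TMM factors. The epithelial label was compared with 7 markers. *Cdh1* (193 to 399 CPM), *Krt8* (2124 to 4340), *Krt18* (2439 to 5791) and *Krt19* (927 to 1375) were abundant in each library, *Krt7* reached at most 1.76 CPM, *Epcam* had 2 counts in a single library and *Cldn7* none. Summed CPM was 5866 to 10915 over the 7 epithelial markers, 0.797 to 4.72 over 5 fibroblast markers (led by *Col1a1*, with *Lum* at 0), 0 to 0.846 over 4 endothelial markers (*Kdr* at 0) and 2.14 to 5.44 over 5 immune markers, nearly all of it *Cd68*, with *Cd3e* at 0.

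As background, origins of replication are bound by the origin recognition complex, which with Cdc6 and Cdt1 loads the MCM helicase in G1. Cdc45 and the GINS complex activate the helicase at the start of S phase, and polymerases, the sliding clamp PCNA and its loader copy the DNA while nucleotides and histones are supplied. Many of these genes are transcribed at the G1 to S transition under the control of E2F factors, and in epithelial cells TGF-β is known as an inhibitor of the passage from G1 into S phase.

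After TGF-β1, most of the replication genes were lower in libraries labelled knockout than in control. Of the 44 genes, 28 were called lower and 0 higher, where 6.57% of all genes tested were called lower. Calls come from edgeR's quasi-likelihood test and needed a log2 fold change beyond 0.5 in either direction together with a p below 0.05 after Benjamini-Hochberg adjustment over all 13028 genes. At an unadjusted p below 0.05, 35 were lower (15.0% of all genes) and 0 higher, and DESeq2 called 31 lower (7.41%) and 0 higher. The median log2 fold change was -0.75, against -0.01 over all genes tested. In 41 of the 44, both libraries labelled knockout lay below both control libraries, and in 0 above, where the shares of all genes were 27.4% and 28.4%. The number of calls leaned on single libraries: 3 genes (*Mcm3*, *Cdc6* and *Chaf1b*) were called without replicate 2 of the treated libraries labelled knockout (1.14% of all genes lower), 17 without replicate 2 of treated control (3.78%), and 2 (*Mcm3* and *Cdc6*) when the 4 libraries were fitted alone (1.10%). The calls of *Mcm3* and *Cdc6* held under each of the 16 alternatives tried, and every other call of this comparison was lost under at least 1. Replicate 1 of the treated libraries labelled knockout by itself was below both treated control libraries in 41 of the 44 genes, where 34.8% of all genes were. At least 41 follows from the count given above for both libraries. In bulk RNA, fewer cells in S phase and less of these RNAs per cell cannot be told apart. The paper reports no change in cell cycle or proliferation in its knockout cells, and names no TGF-β treatment for that measurement. From its RNA sequencing it reports replication initiation among the terms enriched in genes that responded to TGF-β only in knockout cells. For genes that responded in both cell types, it lists a replication checkpoint among the enriched terms.

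TGF-β1 was followed by lower replication genes in the libraries labelled knockout, where 19 of 44 were called lower and 0 higher, against 2.57% of all genes called lower. DESeq2 called 24 (3.68% of all genes lower). The median log2 fold change was -0.64, against 0.00 over all genes, all 44 values were negative, and in 40 the treated libraries lay below both untreated ones and in 0 above (28.3% and 28.4% of all genes). Only 2 were called without replicate 1 of the untreated libraries labelled knockout (*Cdc6* and *Uhrf1*, 0.338% of all genes lower), 2 without replicate 2 of that group (*Pola2* and *Cdc6*, 0.368%) and 2 without replicate 2 of the treated group (*Pola2* and *Cdc6*, 0.484%). Leaving out replicate 1 or 2 of untreated control, which enter the estimate of spread but not this comparison, gave 10 each (1.43% and 1.47%). The call of *Cdc6* held under each of the 16 alternatives, and no other did. Replicate 1 of the treated group alone was below both untreated libraries in 40 of 44 genes (38.6% of all genes). At least 40 follows from the count given above for both treated libraries.

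In control cells TGF-β1 was followed by lower values of a few replication genes, with 5 of 44 called lower by edgeR and 0 higher, against 4.47% of all genes called lower. These were *Uhrf1*, *Chaf1a*, *Pold1*, *Pola2* and *Cdt1*, and DESeq2 also called 5 (5.65% of all genes lower). The median log2 fold change was -0.09 (0.02 over all genes). Both treated libraries lay below both untreated ones for 16 genes and above for 8 (26.3% and 27.4% of all genes). Without replicate 1 of untreated control 0 were called (edgeR; 0.430% of all genes lower), and without replicate 2 only *Uhrf1* was (1.13%). *Pold1*, *Chaf1a* and *Uhrf1* were the 3 called without replicate 1 or replicate 2 of the untreated libraries labelled knockout (2.29% and 2.23%), in a fit of the 4 libraries alone (1.53%) and with counts thinned to the smallest total (3.49%). All 5 genes were also among the 19 called in the libraries labelled knockout, which is 100% of the smaller list and 26.3% of the larger one. Those comparisons share no library, but both come from the same fit of all libraries, with a shared estimate of the spread. Over all genes tested, 160 were called lower in both, 27.4% of those called lower in control and 47.8% of those in the libraries labelled knockout.

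Without treatment, edgeR called 0 of the 44 genes between libraries labelled knockout and control (0.798% of all genes lower), DESeq2 called 0 (1.54%), and 4 (*Orc1*, *Rrm1*, *Cdt1* and *Rfc4*) were lower at an unadjusted p below 0.05 (7.22% of all genes). *Rfc4* and *Rrm1* were called when the 4 libraries were fitted alone (3.20% of all genes lower) and when no filter on low counts was applied (2.09%), and *Rfc4* alone with the replicate number as a block and the numbers of 1 group swapped, an alternative chosen after seeing the data (2.05%). The median log2 fold change was -0.14 against 0.02 over all genes. Libraries labelled knockout lay below both control libraries for 19 genes and above for 1 (25.2% and 26.8% of all genes). Between untreated genotypes the smallest adjusted p of the 44 was 0.184 (edgeR), for *Orc1*.

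The test of the difference between the TGF-β1 responses of the genotypes called 0 of the 44 genes with edgeR and 0 of all genes (0%). At an unadjusted p below 0.05 the difference was negative, that is, the log2 fold change for TGF-β1 was below that of control, for 20 of 44 genes (3.78% of all genes), and the median difference was -0.50 on the log2 scale, against 0.00 over all genes. DESeq2 called *Cdc6* (0.0307% of all genes lower), as did edgeR with no filter on low counts (0.313%). These comparisons share libraries, the treated libraries labelled knockout entering 3 of them, so their values are set side by side below and not as independent results. The calls given below for single genes are those of edgeR where no tool is named. Unless another fit is named, edgeR calls come from all libraries, scaled by TMM. That fit had the filter on low counts, no block and no offset for GC content.

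**Figure D1:**
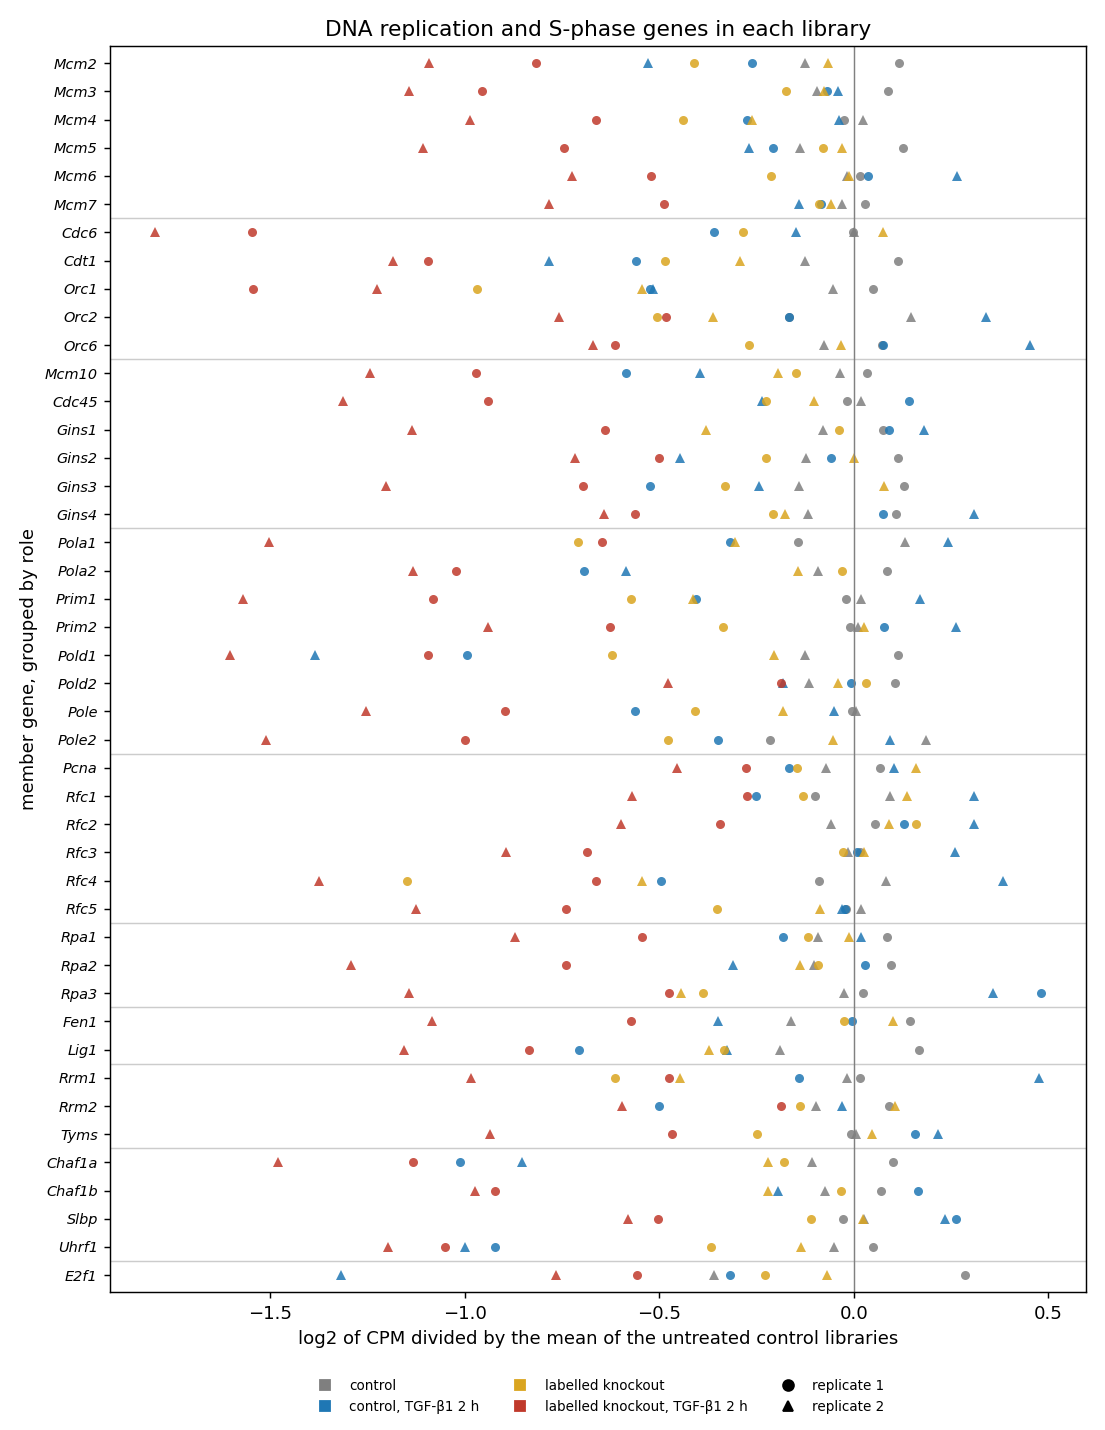
Each row is a gene, grouped by role, and each point a library: the log2 of its CPM divided by the mean CPM of the untreated control libraries. Colours give the 4 groups of 2 libraries, and shapes the replicate number; the treated libraries labelled knockout lie left of both treated control libraries in 41 of 44 rows.

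Among the origin recognition and licensing genes, *Cdc6*, the ATPase that helps load the helicase, had the largest fold changes of the 44 in both comparisons of the treated libraries labelled knockout. *Cdc6* (ENSMUSG00000017499.9, NCBIM37 chr11:98769115-98785254, plus strand) was at 49.3 and 49.4 CPM in untreated control, 38.5 and 44.5 in treated control, 40.5 and 52 in untreated and 16.9 and 14.2 in treated libraries labelled knockout. Both treated libraries labelled knockout were below the other 6, which ran from 38.5 to 52 CPM. The mean fell from 41.5 ± 4.27 (SD, n = 2) CPM in treated control to 15.6 ± 1.93 (SD, n = 2) in treated libraries labelled knockout, 37.6% of the control level (log2 fold change -1.41, SE 0.19, adjusted p = 0.00272). Against the untreated libraries of the same label its log2 fold change was -1.58 (SE 0.19, adjusted p = 0.00201), and in control cells -0.25 (SE 0.18, adjusted p = 0.41). The difference between these responses was -1.33 (SE 0.26, adjusted p = 0.392), not called by edgeR with the filter on low counts but called by DESeq2 and by edgeR with no filter.

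*Cdt1*, the partner of Cdc6 in helicase loading, was at 86.1 and 72.9 CPM in untreated control, 53.9 and 46.2 in treated control, 56.8 and 64.9 in untreated and 37.2 and 35 in treated libraries labelled knockout. In both genotypes the treated libraries were below the untreated ones, with log2 fold changes of -0.67 (SE 0.16, adjusted p = 0.0355) in control and -0.76 (SE 0.16, adjusted p = 0.0267) in the libraries labelled knockout. *Orc1*, the largest subunit of the recognition complex, was at 21.9 and 20.4, 14.7 and 14.8, 10.8 and 14.5, and 7.25 and 9.05 CPM, in the same order of groups. Its untreated control libraries were highest and its treated libraries labelled knockout lowest, and it was called only between the treated genotypes (-0.85, SE 0.23, adjusted p = 0.0385). *Orc2*, another subunit, was at 76.1 and 94.6, 76 and 108, 60.1 and 66.4, and 61.1 and 50.5 CPM, with a log2 fold change of -0.72 (SE 0.20, adjusted p = 0.0409) between treated genotypes. *Orc6*, the smallest subunit, was at 58.9 and 53.2, 59 and 76.8, 46.5 and 54.8, and 36.6 and 35.2 CPM, with -0.92 (SE 0.18, adjusted p = 0.0108) for the same comparison. Both genes had their highest library in replicate 2 of treated control, and for *Orc2* the libraries labelled knockout overlapped between treatments.

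The MCM helicase is a ring of Mcm2 to Mcm7, and 5 of its 6 genes were called lower between treated genotypes. Per kilobase of exon the subunit genes were at similar levels in untreated control, from 56 CPM per kilobase for *Mcm7* to 84.8 for *Mcm3*. *Mcm3* (ENSMUSG00000041859.9, NCBIM37 chr1:20793055-20810359, minus strand) was at 270 and 238 CPM in untreated control, 242 and 247 in treated control, 225 and 241 in untreated and 131 and 115 in treated libraries labelled knockout. The first 6 of these values span 225 to 270 CPM, and both treated libraries labelled knockout were far below. Its log2 fold change was -0.99 (SE 0.14, adjusted p = 0.00339) between treated genotypes, -0.92 (SE 0.14, adjusted p = 0.0056) for TGF-β1 in the libraries labelled knockout and -0.05 (SE 0.14, adjusted p = 0.843) in control.

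*Mcm5* was at 280 and 233, 222 and 213, 243 and 251, and 153 and 119 CPM, in the order untreated control, treated control, untreated and treated libraries labelled knockout. It was called between treated genotypes (-0.68, SE 0.16, adjusted p = 0.0228) and for TGF-β1 in the libraries labelled knockout (-0.86, SE 0.16, adjusted p = 0.0144). *Mcm7*, whose exons overlap *Mir25* and *Mir93* on the same strand, was at 253 and 243, 234 and 225, 233 and 238, and 177 and 144 CPM, and was called in the same comparisons (-0.52, SE 0.14, adjusted p = 0.0375 and -0.56, SE 0.14, adjusted p = 0.0486). *Mcm6* was at 354 and 346, 359 and 421, 302 and 347, and 244 and 212 CPM, highest in treated control, and was called by edgeR between treated genotypes alone (-0.77, SE 0.15, adjusted p = 0.0104) and by DESeq2 also for TGF-β1 in the libraries labelled knockout. *Mcm4*, at 232 and 240, 195 and 230, 174 and 197, and 149 and 119 CPM, was called between treated genotypes only (-0.66, SE 0.16, adjusted p = 0.0249). *Mcm2* was at 252 and 213, 194 and 161, 175 and 222, and 132 and 109 CPM. Its treated control libraries were below untreated control. *Mcm2* was called for TGF-β1 in the libraries labelled knockout (-0.72, SE 0.18, adjusted p = 0.046) and between treated genotypes (-0.56, SE 0.18, adjusted p = 0.0656) by DESeq2 alone. For all 6 genes the treated libraries labelled knockout were the lowest of the 8.

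The genes that activate the helicase were those of Cdc45, the 4 GINS subunits and Mcm10, a factor needed for unwinding. *Cdc45* was at 47.6 and 48.8 CPM in untreated control, 53.2 and 40.9 in treated control, 41.2 and 44.9 in untreated and 25.1 and 19.4 in treated libraries labelled knockout. It was called lower between treated genotypes (-1.08, SE 0.19, adjusted p = 0.00814) and after TGF-β1 in the libraries labelled knockout (-0.95, SE 0.19, adjusted p = 0.021), and the treated libraries of that label were below all others. *Mcm10*, at 68.4 and 65.2, 44.5 and 50.8, 60.3 and 58.4, and 34.1 and 28.2 CPM in the same order, was lower in both treated libraries than in both untreated ones of each genotype, with -0.61 (SE 0.16, adjusted p = 0.0322) between treated genotypes, -0.93 (SE 0.16, adjusted p = 0.0108) for TGF-β1 in the libraries labelled knockout and, not called, -0.49 (SE 0.16, adjusted p = 0.087) in control. *Gins1* was at 38.4 and 34.5, 38.8 and 41.3, 35.5 and 28, and 23.4 and 16.6 CPM and was called between treated genotypes only (-1.00, SE 0.21, adjusted p = 0.0149). *Gins4* was at 58.4 and 49.9, 57.1 and 67.1, 46.9 and 47.9, and 36.7 and 34.7 CPM, highest in replicate 2 of treated control, and was called in the same comparison only (-0.80, SE 0.16, adjusted p = 0.0124). *Gins2* and *Gins3* were called by edgeR and DESeq2 in none of the 5 comparisons, at 18.5 to 32.9 and 6.99 to 17.6 CPM over the 8 libraries, though in each the lowest library was again a treated one labelled knockout. Per kilobase of exon the 4 subunit genes ranged in untreated control from 6.68 (*Gins3*) to 39.7 CPM (*Gins4*).

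The primase and polymerase α genes, which start each new strand, included *Prim1*, which after *Cdc6* had the largest fall of the 44 between treated genotypes. *Prim1*, the catalytic primase subunit, was at 91.1 and 93.6 CPM in untreated control, 69.7 and 104 in treated control, 62.1 and 69.4 in untreated and 43.6 and 31.1 in treated libraries labelled knockout, and its log2 fold change between treated genotypes was -1.21 (SE 0.22, adjusted p = 0.00905). DESeq2 also called it for TGF-β1 in the libraries labelled knockout. *Prim2*, its partner, was at 56 and 56.8, 59.5 and 67.7, 44.7 and 57.4, and 36.5 and 29.4 CPM, with -0.95 (SE 0.18, adjusted p = 0.0105). *Pola1*, the catalytic subunit of polymerase α, was at 114 and 138, 101 and 149, 77.1 and 102, and 80.5 and 44.4 CPM, with -1.00 (SE 0.29, adjusted p = 0.0455). In these 3 genes replicate 2 of treated control was the highest library and replicate 2 of the treated libraries labelled knockout the lowest, and the groups compared did not overlap. *Pola2*, the accessory subunit, was at 129 and 114, 75.1 and 81, 119 and 110, and 59.8 and 55.4 CPM. It separated by treatment in both genotypes and was called in control (-0.64, SE 0.14, adjusted p = 0.0265) and in the libraries labelled knockout (-0.99, SE 0.14, adjusted p = 0.00474), not between treated genotypes (-0.44, SE 0.14, adjusted p = 0.0667).

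Of the polymerase δ and ε genes, which copy most of the genome, *Pole*, the catalytic subunit of ε, was at 156 and 157 CPM in untreated control, 106 and 151 in treated control, 118 and 138 in untreated and 84.1 and 65.6 in treated libraries labelled knockout. It was called between treated genotypes (-0.78, SE 0.20, adjusted p = 0.0295) and for TGF-β1 in the libraries labelled knockout (-0.78, SE 0.20, adjusted p = 0.0489). *Pole2*, at 19.3 and 25.5, 17.6 and 23.9, 16.1 and 21.6, and 11.2 and 7.86 CPM in the same order, was called between treated genotypes (-1.12, SE 0.28, adjusted p = 0.0272), where both groups were separate, and by DESeq2 also for TGF-β1 in the libraries labelled knockout. *Pold1*, the catalytic subunit of δ, was at 96.4 and 81.7, 44.7 and 34.1, 57.9 and 77.3, and 41.7 and 29.3 CPM. The treated libraries of both genotypes overlapped and lay below the untreated ones, with -1.17 (SE 0.23, adjusted p = 0.0167) in control and -0.93 (SE 0.23, adjusted p = 0.0423) in the libraries labelled knockout. *Pold2* ranged from 31.7 to 47.5 CPM and was called by neither edgeR nor DESeq2, except between treated genotypes with the offset for GC content described below.

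*Pcna*, the sliding clamp, had the highest level per kilobase of exon of the 44 in untreated control, 95.5 CPM per kilobase, and was called nowhere by edgeR or DESeq2. It was at 240 and 218 CPM in untreated control, 204 and 246 in treated control, 207 and 256 in untreated and 189 and 167 in treated libraries labelled knockout. Its treated libraries labelled knockout were below the rest, with log2 fold changes of -0.33 (SE 0.16, adjusted p = 0.19) against treated control and -0.38 (SE 0.16, adjusted p = 0.206) against the untreated libraries of that label, both short of the call. The pseudogene *Pcna-ps2*, a near-copy, was listed at 55.8 to 140 CPM, so that the values of *Pcna* are uncertain. Of the clamp loader genes, *Rfc3* was at 37.4 and 36.6, 37.2 and 44.3, 36.3 and 37.7, and 23 and 19.9 CPM in the same order, and was called between treated genotypes (-0.92, SE 0.17, adjusted p = 0.00904) and for TGF-β1 in the libraries labelled knockout (-0.79, SE 0.17, adjusted p = 0.0266). *Rfc5*, at 67.6 and 69.4, 67.4 and 67.1, 53.7 and 64.5, and 41 and 31.4 CPM, was called in both as well (-0.89, SE 0.17, adjusted p = 0.0113 and -0.71, SE 0.17, adjusted p = 0.0421). *Rfc2*, at 73.6 and 68, 77.5 and 87.7, 79.1 and 75.4, and 55.8 and 46.8 CPM, was called by edgeR between treated genotypes only (-0.69, SE 0.15, adjusted p = 0.0183) and by DESeq2 also for TGF-β1 in the libraries labelled knockout. In all 3 genes the treated libraries labelled knockout were below the other 6. *Rfc1*, the large subunit, at 101 to 186 CPM, was called by neither tool. *Rfc4*, at 13 to 44 CPM, was called between treated genotypes by DESeq2. By edgeR it was not called in the fit of all libraries with the filter on low counts and no block. The replicates of *Rfc4* differed widely within each treated group, and its standard errors, 0.33 to 0.48, were among the largest of the 44.

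The genes of replication protein A, which coats single-stranded DNA, were all 3 called lower between treated genotypes. *Rpa1* was at 260 and 230 CPM in untreated control, 216 and 248 in treated control, 226 and 243 in untreated and 168 and 134 in treated libraries labelled knockout, which gave -0.62 (SE 0.16, adjusted p = 0.0291) on the log2 scale. *Rpa2* was at 53.4 and 46.5, 51 and 40.3, 46.9 and 45.4, and 29.9 and 20.4 CPM, with -0.86 (SE 0.21, adjusted p = 0.0263). *Rpa3*, the least abundant per kilobase of the 3, was at 12.3 and 11.9, 16.9 and 15.5, 9.25 and 8.89, and 8.71 and 5.48 CPM, with -1.19 (SE 0.27, adjusted p = 0.0185). *Rpa1* (-0.63, SE 0.16, adjusted p = 0.0435) and *Rpa2* (-0.88, SE 0.21, adjusted p = 0.042) were also called for TGF-β1 in the libraries labelled knockout. The treated control libraries of *Rpa3* were above all others and its treated libraries labelled knockout below all others.

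Okazaki fragments are trimmed by Fen1 and sealed by DNA ligase I. *Fen1* was at 162 and 131 CPM in untreated control, 146 and 115 in treated control, 144 and 157 in untreated and 98.5 and 69.1 in treated libraries labelled knockout, and was called for TGF-β1 in the libraries labelled knockout (-0.85, SE 0.21, adjusted p = 0.0402), and between treated genotypes (-0.64, SE 0.20, adjusted p = 0.0628) by DESeq2 alone. *Lig1* ranged from 49.9 to 125 CPM and was called by DESeq2 alone, for TGF-β1 in the libraries labelled knockout. Both had their lowest values in the treated libraries labelled knockout.

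Of the nucleotide supply genes, *Tyms*, thymidylate synthase, was at 107 and 108 CPM in untreated control, 120 and 125 in treated control, 90.5 and 111 in untreated and 77.8 and 56.2 in treated libraries labelled knockout and was called between treated genotypes (-0.87, SE 0.18, adjusted p = 0.0144). *Rrm1*, the large subunit of ribonucleotide reductase, was at 350 and 342, 314 and 481, 226 and 254, and 249 and 175 CPM in the same order, with -0.91 (SE 0.22, adjusted p = 0.0263). For *Rrm1* all 4 libraries labelled knockout were below all 4 control libraries, and treatment did not separate them. *Rrm2*, the small subunit whose protein is tied to S phase, was at 211 and 185, 140 and 194, 180 and 213, and 174 and 131 CPM and was called nowhere by edgeR or DESeq2, with -0.13 (SE 0.20, adjusted p = 0.702) between treated genotypes, where the groups overlapped.

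*Uhrf1* and *Chaf1a*, which act on chromatin behind the fork, had the smallest adjusted p-values of the 44 for TGF-β1 in control cells, and the other genes of their group, *Chaf1b* and *Slbp*, were called there by neither edgeR nor DESeq2. *Uhrf1*, which recognises hemimethylated DNA and recruits Dnmt1 (ENSMUSG00000001228.8, NCBIM37 chr17:56442744-56462909, plus strand), was at 191 and 178 CPM in untreated control, 97.4 and 92.3 in treated control, 143 and 168 in untreated and 89 and 80.4 in treated libraries labelled knockout. All 4 treated libraries were below all 4 untreated ones, at 51.5% of the untreated level in control (log2 fold change -0.96, SE 0.14, adjusted p = 0.00515) and 54.5% in the libraries labelled knockout (-0.88, SE 0.14, adjusted p = 0.00835). Between treated genotypes it was -0.16 (SE 0.14, adjusted p = 0.474). *Chaf1a*, the large subunit of the CAF-1 histone chaperone, was at 72.4 and 62.7, 33.5 and 37.4, 59.7 and 58, and 30.8 and 24.2 CPM in the same order and was also called in control (-0.93, SE 0.17, adjusted p = 0.0137) and in the libraries labelled knockout (-1.10, SE 0.17, adjusted p = 0.00692).

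*Chaf1b*, the middle subunit of CAF-1, was at 116 and 105 CPM in untreated control, 124 and 96.6 in treated control, 108 and 94.9 in untreated and 58.3 and 56.3 in treated libraries labelled knockout. The treated libraries labelled knockout stood below the other 6, which overlapped, and the calls were between treated genotypes (-0.94, SE 0.16, adjusted p = 0.00738) and for TGF-β1 in the libraries labelled knockout (-0.82, SE 0.16, adjusted p = 0.0188), with 0.00 (SE 0.16, adjusted p = 0.998) in control. *Slbp*, which binds the stem-loop of histone mRNA, was at 63.7 and 66.1, 77.9 and 76.3, 60.1 and 66, and 45.8 and 43.4 CPM in the same order. Treated control was its highest group and the treated libraries labelled knockout its lowest, with -0.79 (SE 0.14, adjusted p = 0.00776) between them. The transcription factor gene *E2f1* was called nowhere by edgeR or DESeq2 and was at 28 and 17.9, 18.4 and 9.2, 19.6 and 21.9, and 15.6 and 13.5 CPM. Its lowest library was replicate 2 of treated control, and the groups overlapped between treated genotypes (0.07, SE 0.33, adjusted p = 0.908).

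In all, 35 of the 44 genes were called lower by edgeR in at least 1 comparison, as were 11.9% of all genes tested, and 9 in none: *Pcna*, *Rfc1*, *Rfc4*, *Pold2*, *Gins2*, *Gins3*, *Lig1*, *Rrm2* and *E2f1*. Of these 9, DESeq2 called *Rfc4* and *Lig1*, each in 1 comparison. No gene of the 44 was called higher in any comparison by edgeR or DESeq2. Per kilobase of exon, levels in untreated control ran from 4.52 CPM (*Orc1*) to 95.5 (*Pcna*), with *Rrm1* at 86.5, *Mcm6* at 80.1 and *Rrm2* at 71.5.

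Other replication genes outside the 44 were read from a list of 40, all tested. Between treated genotypes edgeR called 15 lower and 0 higher (37.5% lower, against 6.57% of all genes), with a median log2 fold change of -0.51, and DESeq2 18 and 0 (45%, against 7.41%). For TGF-β1 in the libraries labelled knockout edgeR called 14 lower and 0 higher (35%, against 2.57%; median -0.49) and DESeq2 16 and 0 (40%, against 3.68%). In control both tools called 5 lower and 0 higher (12.5%, against 4.47% by edgeR and 5.65% by DESeq2), with a median of 0.00. Between untreated genotypes edgeR called 0 (0.798% of all genes lower) and DESeq2 0, and at an unadjusted p below 0.05 4 were lower and 2 higher, near the shares of all genes (7.22% and 7.64%). Between treated genotypes those called with large falls included *Tipin*, a fork protection factor (-1.24, SE 0.20, adjusted p = 0.00575), and *Dscc1*, a subunit of an alternative clamp loader (-1.21, SE 0.29, adjusted p = 0.0233). For TGF-β1 in the libraries labelled knockout the largest were *Dna2*, a nuclease and helicase (-1.65, SE 0.22, adjusted p = 0.00307), *Cdc7*, the kinase that fires origins (-1.55, SE 0.28, adjusted p = 0.0117), and *Recql4* (-1.45, SE 0.24, adjusted p = 0.00879). In control they were *Timeless*, the partner of Tipin (-1.10, SE 0.16, adjusted p = 0.00505), *Ticrr*, an origin firing factor listed as 5730590G19Rik (-1.09, SE 0.18, adjusted p = 0.00778), and *Chtf18*, another alternative clamp loader subunit (-1.03, SE 0.20, adjusted p = 0.0176). *Dna2* was at 45.2 and 38.3 CPM in untreated control, 20.1 and 23.6 in treated control, 36.6 and 46.3 in untreated and 15.1 and 11.5 in treated libraries labelled knockout. *Timeless* was at 51.1 and 51.3, 25.6 and 22.1, 53.3 and 47.1, and 22 and 20.1 CPM in the same order. In both genes all 4 treated libraries were below all 4 untreated ones.

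Of 28 regulators of the G1 to S transition, 27 were tested (*Cdkn1c* was not). Between treated genotypes edgeR called 6 lower and 0 higher (22.2% lower, against 6.57% of all genes; median -0.14), as did DESeq2 (7.41% of all genes), led by the cyclin genes *Ccnd2* (-2.06, SE 0.42, adjusted p = 0.0137), *Ccne2* (-1.18, SE 0.33, adjusted p = 0.0399) and *Ccne1* (-1.10, SE 0.28, adjusted p = 0.0294). In both responses to TGF-β1 edgeR called 2 lower, *E2f2* and *E2f8*, and 0 higher, which is 7.41% against 4.47% of all genes in control and 2.57% in the libraries labelled knockout. The medians were -0.09 and -0.26. DESeq2 called 3 lower (11.1%, against 5.65%) and 1 higher (*Tfdp2*) in control, and 4 lower (14.8%, against 3.68%) and 0 higher in the libraries labelled knockout. Between untreated genotypes edgeR called 0 (3 lower and 1 higher at an unadjusted p below 0.05, against 7.22% and 7.64% of all genes) and DESeq2 1 lower, *Ccnd2* (1.54% of all genes). *Ccnd2*, cyclin D2, was at 14 and 17.1 CPM in untreated control, 24.1 and 19 in treated control, 1.54 and 5.71 in untreated and 3.99 and 6.35 in treated libraries labelled knockout, so that all 4 libraries labelled knockout were below all 4 control libraries. *E2f2*, an activating E2F, was at 22 and 19.6, 1.78 and 2.43, 18.9 and 22.2, and 3.01 and 1.67 CPM, in the same order. Treated libraries were far below untreated ones in both genotypes, -3.31 (SE 0.33, adjusted p = 0.000886) in control and -3.13 (SE 0.32, adjusted p = 0.00095) in the libraries labelled knockout on the log2 scale. *E2f8*, a repressing E2F, was at 47.8 and 51.3, 23.6 and 29.3, 28.2 and 40.5, and 18.6 and 19.1 CPM, with -0.91 (SE 0.21, adjusted p = 0.0285) and -0.88 (SE 0.21, adjusted p = 0.0393).

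The replication-dependent histone genes, which are expressed in S phase, were summed by symbol over 69 genes. Their sum was 10044 and 8081 CPM in untreated control, 7714 and 6482 in treated control, 7664 and 9258 in untreated and 4810 and 3584 in treated libraries labelled knockout. Of 66 tested, edgeR called 19 lower between treated genotypes (28.8%, against 6.57% of all genes), 36 for TGF-β1 in the libraries labelled knockout (54.5%, against 2.57%) and 7 in control (10.6%, against 4.47%), with 0 higher in each. DESeq2 called 31, 55 and 16 lower (47%, 83.3% and 24.2%, against 7.41%, 3.68% and 5.65% of all genes) and 0 higher. Between untreated genotypes both tools called 0 (1 was lower at an unadjusted p below 0.05, against 7.22% of all genes). The medians were -0.66, -1.09, -0.46 and -0.08. The paper's methods name an mRNA library kit and the labels differ, and the effect of the kit on counts of histone genes was not tested.

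Mitosis genes, a list of 24 all tested, had 11 called lower by edgeR between treated genotypes (45.8%, against 6.57% of all genes) and 18 by DESeq2 (75%, against 7.41%). For TGF-β1 in the libraries labelled knockout 2 were called lower by edgeR (8.33%, against 2.57%) and 3 by DESeq2 (12.5%, against 3.68%). In control edgeR called 0 and DESeq2 2 lower (5.65% of all genes), with 3 lower at an unadjusted p below 0.05, near the share of 13.2% of all genes. Between untreated genotypes both tools called 0, with 2 lower at an unadjusted p below 0.05, near the 7.22% of all genes. The medians were -0.83, -0.42, 0.05 and -0.25. For the 44 replication genes the same medians were -0.75, -0.64, -0.09 and -0.14. The difference between the TGF-β1 responses was called by edgeR for 0 genes of any of these 4 lists (8 of the other replication genes, 4 regulators, 19 histone genes and 6 mitosis genes were lower at an unadjusted p below 0.05, against 3.78% of all genes) and for 0 by DESeq2.

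**Figure D2:**
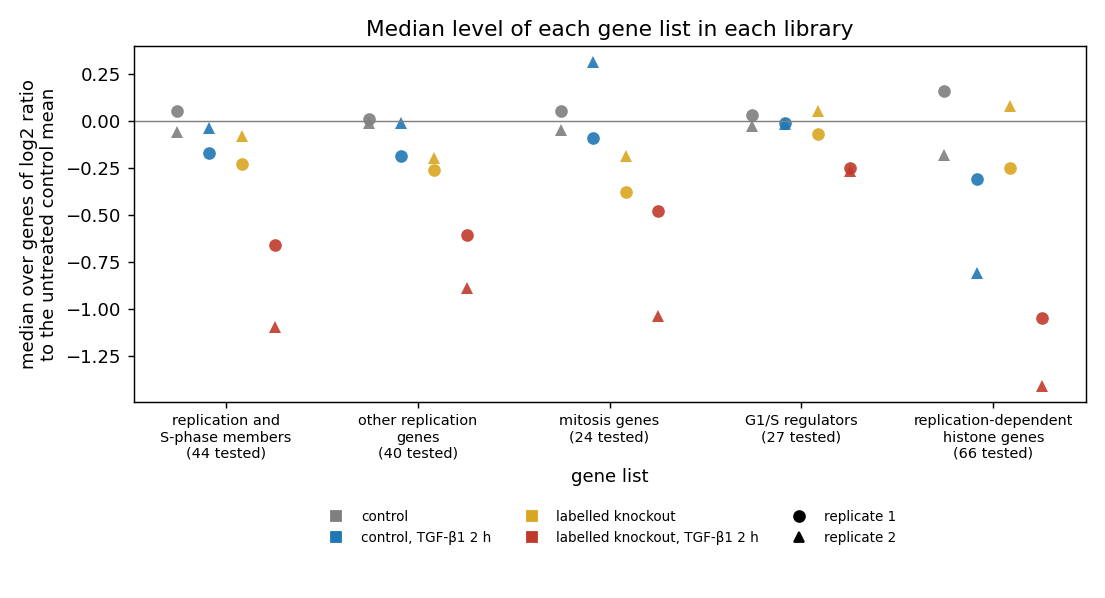
For each gene list, each point is a library and gives the median over the tested genes of the log2 ratio to the untreated control mean, with 0.1 CPM added; colours give the 4 groups and shapes the replicate number. The treated libraries labelled knockout, at -0.66 and -1.10 for the 44 replication genes, are the lowest of each list.

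Replicates of a group differed in a shared direction over many of these genes. In treated libraries labelled knockout, replicate 2 was below replicate 1 for 43 of the 44 (median log2 difference -0.31), where 50.6% of all genes tested were, and for 24 of 24 mitosis genes (-0.61). In treated control replicate 2 was below replicate 1 for 16 of the 44 (0.17), in untreated control for 30 (-0.11) and in untreated libraries labelled knockout for 10 (0.16). For the 24 mitosis genes these values were 6 (0.44), 14 (-0.09) and 5 (0.15), in the same order. For 66 histone genes they were 53 (-0.48), 62 (-0.35) and 8 (0.27), with 57 (-0.38) in treated libraries labelled knockout. In treated control the histone genes thus went the other way from the 44. Across the 44 genes these differences went with the GC content of the exons, with Pearson's r of -0.64 in untreated control, -0.59 in treated control, -0.20 in untreated and 0.28 in treated libraries labelled knockout (n = 44 genes that share the same libraries, as a description). Over all genes tested r was -0.33, -0.40, -0.03 and 0.29.

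The fold changes went with GC content across the 44 genes to a degree that varied by comparison. Between treated genotypes r was 0.60, so that GC-poor genes were lower, and for TGF-β1 it was -0.65 in control, where GC-rich genes were lower, and -0.35 in the libraries labelled knockout. It was 0.28 between untreated genotypes and 0.41 for the difference between the responses. Over all genes these were 0.29, -0.15, -0.04, 0.21 and 0.13. *Pold1*, at 60.2% GC, and *Cdt1*, at 58.8%, are examples of the GC-rich end, and *Rpa3*, at 35%, is the GC-poor end. An offset for GC content in each library was added to the fit, a choice made after seeing the data. It gave 31 calls between treated genotypes (7.20% of all genes lower), 25 for TGF-β1 in the libraries labelled knockout (4.00%), 5 in control (5.41%) and 0 between untreated genotypes (1.22%), with medians of -0.72, -0.64, -0.13 and -0.19. Between treated genotypes the offset ended the calls of *Mcm4*, *Rpa3* and *Orc1* and added *Mcm2*, *Pola2*, *Pold2*, *Cdt1*, *Fen1* and *Chaf1a*. For TGF-β1 in the libraries labelled knockout it added *Mcm6*, *Prim1*, *Prim2*, *Pole2*, *Tyms* and *Slbp*, and in control the 5 then held *Mcm10* in place of *Cdt1*. The part of base composition and of single libraries in the results was otherwise not tested.

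The 44 genes lie on 14 chromosomes, with 8 on chromosome 5 and 6 on chromosome 8. The exons of 12 share bases with a gene on the other strand: *Orc1*, *Orc2*, *Mcm7*, *Cdc45*, *Gins2*, *Pole*, *Rfc4*, *Rfc5*, *Fen1*, *Lig1*, *Tyms* and *Chaf1a*. Whether counting used the strand is not given in the sources used here, so reads of these genes and of their partners cannot be told apart.

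Promoter windows from RefSeq (GRCm38.p6, 250 bases before to 50 after the start of transcription) were found for 37 of the 44, and not for *Mcm4*, *Gins1*, *Gins2*, *Gins4*, *Pole*, *Prim2* and *Rfc2*. They were searched on both strands for the E2F motif in its 4 spellings TTTCCCGC, TTTCGCGC, TTTGCCGC and TTTGGCGC, which read GCGGGAAA, GCGCGAAA, GCGGCAAA and GCGCCAAA from the other strand. The motif was present for 14 of the 37 genes (37.8%), against 704 of 27025 symbols with a window (2.60%), and in 14 of 44 windows of these genes (31.8%) against 744 of all 32851 windows (2.26%). The genes with it were *Mcm3*, *Mcm5*, *Mcm6*, *Mcm7*, *Cdc6*, *Cdt1*, *Orc1*, *Gins3*, *Pola1*, *Pold1*, *Pole2*, *Rfc3*, *Lig1* and *Uhrf1*. They include genes called in control (*Cdt1*, *Pold1* and *Uhrf1*) and genes that edgeR called nowhere (*Gins3* and *Lig1*), and a match describes the letters of the window, not binding. The windows of *Cdc6* and *Mcm3*, with the smallest adjusted p of the 44 between treated genotypes, of *Uhrf1*, with the smallest in control, and of *Mcm6*, where motifs of opposite strands overlap, are printed 5′ to 3′ on the strand of the gene, with the motif in capitals. Motifs of opposite strands also overlap in the window of *Mcm5*, which is not printed. *Cdc6* is from chr11:98907901-98908200 (plus), *Mcm3* from chr1:20820263-20820562 (minus), *Mcm6* from chr1:128359656-128359955 (minus) and *Uhrf1* from chr17:56304063-56304362 (plus). The other window of *Uhrf1*, chr17:56303087-56303386 (plus), holds no motif and is not printed.
Cdc6: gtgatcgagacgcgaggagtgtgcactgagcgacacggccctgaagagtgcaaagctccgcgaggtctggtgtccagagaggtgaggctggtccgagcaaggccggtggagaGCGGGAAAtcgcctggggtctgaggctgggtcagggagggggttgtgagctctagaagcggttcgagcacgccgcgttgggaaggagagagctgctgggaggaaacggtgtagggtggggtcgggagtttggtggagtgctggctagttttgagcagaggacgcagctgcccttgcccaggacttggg
Mcm3: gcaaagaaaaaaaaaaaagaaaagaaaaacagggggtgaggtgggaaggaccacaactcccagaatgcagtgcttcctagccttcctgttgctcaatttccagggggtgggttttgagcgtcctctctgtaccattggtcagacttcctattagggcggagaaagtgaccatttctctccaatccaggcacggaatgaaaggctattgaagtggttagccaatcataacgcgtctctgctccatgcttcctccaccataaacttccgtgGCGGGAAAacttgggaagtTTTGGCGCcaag
Mcm6: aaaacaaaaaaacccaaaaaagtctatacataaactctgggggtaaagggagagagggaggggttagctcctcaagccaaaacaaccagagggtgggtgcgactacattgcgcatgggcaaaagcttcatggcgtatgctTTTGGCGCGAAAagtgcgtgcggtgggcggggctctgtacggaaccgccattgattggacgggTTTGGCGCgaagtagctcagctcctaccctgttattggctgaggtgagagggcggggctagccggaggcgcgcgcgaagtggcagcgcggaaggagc
Uhrf1: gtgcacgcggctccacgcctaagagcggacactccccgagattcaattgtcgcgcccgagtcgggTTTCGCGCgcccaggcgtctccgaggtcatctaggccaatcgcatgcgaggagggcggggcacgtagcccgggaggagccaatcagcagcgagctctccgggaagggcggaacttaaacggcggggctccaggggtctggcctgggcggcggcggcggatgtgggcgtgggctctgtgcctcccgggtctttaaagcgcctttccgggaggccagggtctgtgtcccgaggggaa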

How the data were processed

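RNA was sequenced from 8 libraries of NMuMG cells, 2 in each of 4 groups that the sample labels give. The values are raw read counts, deposited by the authors as whole numbers for 37310 genes in 1 table with no column beyond these libraries. The submitters' processing notes name HISAT2, limma and the mm10 build, while the paper's methods name other tools; neither how reads were counted nor the strand setting is given in the sources used here. Labels and methods also disagree on the library kit, sequencer and read layout. Row identifiers and their order equal GENCODE vM1 (NCBIM37, mm9), which gave positions, exon lengths and, with the genome, exon GC content. Promoters came from RefSeq (GRCm38.p6). By its older symbols, *Ticrr* is listed as 5730590G19Rik and *Supt16* as Supt16h.

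Counts were filtered with edgeR 4.0.16 (filterByExpr over the groups, 13028 genes kept), scaled by TMM and fitted without a block (glmQLFit, R 4.3.3), and glmQLFTest was run on 5 contrasts, with Benjamini-Hochberg adjustment over all 13028 genes. A call needed p below 0.05 after adjustment and a log2 fold change beyond 0.5 in either direction, and for the difference between responses only the former. A standard error is the absolute log2 fold change divided by the square root of F. Residual degrees of freedom were 4 and prior ones 5.5, at a biological coefficient of variation of 0.18. A count of 3, the smallest level read as present, was 0.238 to 0.661 CPM, a floor that covers counting error only. The fit was tested on simulated data.

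The genes and lists were chosen with earlier results of these data known. Named are each of the 44 genes called in any comparison, the most abundant gene of a role group with no call, and, of the lists of other replication genes and G1 to S regulators, up to 3 of the called genes with the largest change in each direction of each comparison; other genes named were chosen after their values were seen. Alternatives were DESeq2 1.42.0, RLE factors, no filter on low counts, the replicate number as a block, a fit of the 4 libraries compared, counts thinned to the smallest total, 4297832, and each library left out in turn, with exchanged replicate numbers and an offset for GC content added after seeing the data.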

Additional observations from a re-analysis of the deposited data

How the results depend on the processing

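The 52 log2 fold changes of called genes kept their sign under each of the 16 alternatives (832 of 832 values), which the choice of called genes and the shared libraries largely fix. Of the 52, 3 remained called under all of them (*Cdc6* and *Mcm3* between treated genotypes, and *Cdc6* for TGF-β1 in the libraries labelled knockout). Between treated genotypes, 28 genes were called (2 in a fit of the 4 libraries alone), and 3 to 29 with 1 library left out (1.14% to 9.45% of all genes lower), with medians from -0.85 to -0.60. For TGF-β1 in the libraries labelled knockout, 19 were called, and 2 to 25 with 1 library left out (0.338% to 4.27%), with medians from -0.81 to -0.48. In control, 5 were called, 3 in a fit of the 4 libraries and 3 with thinned counts, and 0 to 5 with 1 library left out (0.430% to 6.16%), with medians from -0.20 to -0.04. Untreated, 0 were called, 2 in a fit of the 4 libraries, 2 with no filter on low counts, and 0 in each fit with 1 library left out (0.107% to 1.42%). For the difference between the responses 0 were called, 1 by DESeq2 and 1 with no filter on low counts, and the median was -0.68 to -0.31 with 1 library left out. A fit without 1 library has a lone sample in a group, assumed to vary like the others, and 1 degree of freedom less; the cause of the other changes was not tested.

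The labels name no shared batch that would pair libraries by replicate number, and 2 pairs in a comparison cannot settle whether they are paired. The correlation of same-numbered deviations was 0.098, -0.473, 0.297 and -0.00915 in the 4 comparisons. With the replicate block, 0, 22, 4, 13 and 0 genes were called (untreated, treated, TGF-β1 in control, TGF-β1 in libraries labelled knockout, and their difference), with medians of -0.15, -0.73, -0.09, -0.64 and -0.48, where 0.537%, 4.85%, 3.01%, 1.88% and 0% of all genes were called lower. With replicates 1 and 2 swapped in the treated group labelled knockout (chosen after seeing the data), the counts were 1, 31, 5, 27 and 0, beside 2.05%, 9.75%, 7.61%, 5.04% and 0.0154% of all genes.

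The smallest library, replicate 1 of the untreated libraries labelled knockout, held 4297832 counts and enters the untreated comparison and the response to TGF-β1 under that label; 3 counts there were 0.661 CPM.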

Other observations

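The replicates of the treated groups differed in 2 regulators of the G1 to S transition that edgeR and DESeq2 called in none of the 5 comparisons and that were chosen after their values were seen. *Cdkn1a*, which encodes the CDK inhibitor p21, was at 56.6 and 57.7 CPM in untreated control, 135 and 56.3 in treated control, 44.5 and 61.6 in untreated and 62.8 and 181 in treated libraries labelled knockout. *Myc* was at 55.4 and 76.1, 65.5 and 36.2, 52.4 and 77.8, and 37.4 and 117 CPM in the same order. In both genes replicate 1 was the higher of the treated control libraries and replicate 2 the higher of the treated libraries labelled knockout, the library in which 43 of the 44 replication genes were below its replicate. These values were not tested against those of the replication genes.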
